A study of Mus musculus with 8 samples.

Results

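The genes described here are 10 transcripts of the hepatic acute phase response and of its STAT3 branch, measured in mouse liver. They were taken by name from the table of normalized read counts and comprise the serum amyloid A genes *Saa1*, *Saa2* and *Saa3*, the orosomucoids *Orm1* and *Orm2*, haptoglobin (*Hp*), lipocalin 2 (*Lcn2*), serum amyloid P (*Apcs*), the transcription factor *Stat3* and its inhibitor *Socs3*. All 10 were among the 14506 listed genes, and all 10 were among the 11174 genes that passed the filter for testing, a mean normalized count of at least 10 over the livers. The rule used their names and no values, but the members were chosen with earlier results of these data known.

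The samples were whole livers of 8 mice, 4 *Rragc* +/+ and 4 *Rragc* S74N/+. *Rragc* encodes RagC, a GTPase that relays nutrient sufficiency to the growth kinase complex mTORC1, and S74N is an activating substitution knocked into the endogenous gene, carried on 1 allele in every cell of the mouse. Of the *Rragc* +/+ mice, replicates 1 to 3 were 3 months old and replicate 4 was 2.5 months old. Of the *Rragc* S74N/+ mice, replicates 1 and 2 were 3 months old, replicate 3 was 2.5 months old and replicate 4 was 2 months old, so that 1 of the 8 mice was 2 months old and its genotype, its age and the animal itself cannot be told apart. The labels state neither sex nor feeding for these livers. The mutation was present in hepatocytes and in every other cell, and the RNA was that of all liver cells together, in which fewer cells of a type and less RNA per cell cannot be told apart. Reads counted in listed genes numbered 4313076 to 6632108 per liver. The values are reads at the 3′ end of each messenger RNA, 1 fragment per copy whatever the transcript length, divided by a scaling factor per liver of 0.707 to 1.23. The edited gene itself was at 84.1 ± 20.4 normalized counts in *Rragc* +/+ livers (SD, n = 4) and at 76.6 ± 7.32 with the S74N allele (SD, n = 4), a level that does not check the labels because the substitution does not remove the transcript. All 10 hepatocyte markers (*Alb*, *Ttr*, *Apoa1* and others) were present, with summed normalized counts of 268100.1 to 367659 in 7 livers and 466774 in the 2-month-old liver.

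The acute phase response is the change in plasma proteins that the liver makes when tissue injury or infection is sensed. Interleukin 6 and related cytokines bind receptors that share the gp130 chain, JAK kinases then phosphorylate STAT3, and STAT3 together with C/EBP and NF-kB factors raises transcription of acute phase genes in hepatocytes. *Socs3* is itself a target of STAT3, and its product binds gp130 and JAK and shuts the signal down, so its transcript is short-lived and follows recent signalling.

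The serum amyloid A genes are the members with the widest known induction range and lie in 1 cluster on chromosome 7, so the sequences before their start sites are shown here for comparison with the shared behaviour of *Saa1* and *Saa2* described after them. The sequences are the 200 bases that end 51 bases before the RefSeq start site, in GRCm38.p6, read 5′ to 3′ on the gene's strand. They lie at chr7:46743031-46743230 on the reverse strand for *Saa1*, at chr7:46751583-46751782 on the forward strand for *Saa2* and at chr7:46715727-46715926 on the reverse strand for *Saa3*. *Apcs* (chr1:172895105-172895304, reverse strand) is added because it holds a match to the STAT motif. Capitals mark matches to the C/EBP letters TTGCNNAA, read on either strand, in the 3 serum amyloid genes and to the STAT letters TTCNNNGAA in *Apcs*.
Saa1: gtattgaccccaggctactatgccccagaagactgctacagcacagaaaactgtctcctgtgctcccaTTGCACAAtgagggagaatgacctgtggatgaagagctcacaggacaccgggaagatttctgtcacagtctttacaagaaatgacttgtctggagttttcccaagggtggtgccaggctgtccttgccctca
Saa2: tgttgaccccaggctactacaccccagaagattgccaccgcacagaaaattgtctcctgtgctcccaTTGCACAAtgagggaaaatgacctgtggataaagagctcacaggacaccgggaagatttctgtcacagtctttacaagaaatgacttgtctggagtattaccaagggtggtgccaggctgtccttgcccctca
Saa3: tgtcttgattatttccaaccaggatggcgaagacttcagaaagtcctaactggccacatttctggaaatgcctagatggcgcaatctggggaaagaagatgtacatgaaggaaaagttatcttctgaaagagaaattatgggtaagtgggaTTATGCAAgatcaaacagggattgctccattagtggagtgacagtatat
Apcs: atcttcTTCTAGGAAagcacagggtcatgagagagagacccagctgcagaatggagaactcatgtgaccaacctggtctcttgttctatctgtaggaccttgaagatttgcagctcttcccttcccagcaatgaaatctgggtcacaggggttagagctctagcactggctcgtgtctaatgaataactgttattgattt

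The windows of *Saa1* and *Saa2*, taken over 250 bases, were identical at 238 of 251 aligned columns (94.8%), and both held TTGCACAA, 182 bases before the start site in *Saa1* and 183 in *Saa2*. *Saa3* was 48.5% identical to *Saa1* over its window and held TTATGCAA, the same motif on the other strand, 99 bases before its start. Of the 8 members with a RefSeq window (*Orm1* and *Hp* had none), 5 held the C/EBP letters, the other two being *Lcn2* (TTGCTCAA) and *Orm2* (TTGCGCAA), and 9.56% of all 32851 windows of this length held them. The STAT letters stood in 2 of the 8, in *Apcs* as TTCTAGGAA 244 bases and in *Socs3* as TTCTTAGAA 154 bases before the start, against 7.02% of all windows. No member window held the NF-kB letters, GGGNN followed by TTTCC, which 1.41% of all windows did. The letters were chosen after these windows were read, and *Saa1* and *Saa2* are near copies, so the shares describe the windows and are no test. A match is a run of letters and does not show that a factor binds there. The lack of a match to these letters does not show that a site is absent.

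The question put to the 10 genes was whether livers of the 2 genotypes differed in them before organ damage is overt. None of the 10 differed between genotypes past an adjusted p of 0.05 (limma on log2(normalized count + 1), adjusted over all tested genes), and their 2 groups of 4 livers overlapped for all 10. Of all tested genes, 0.00895% passed the same threshold, a single gene, *Gpx3*, which is no member and was singled out after its value was seen. At an unadjusted p under 0.05, 1 of 10 members passed, *Saa3*, against 5.17% of all genes (2.37% higher in *Rragc* S74N/+, the direction of *Saa3*). The difference (*Rragc* S74N/+ minus *Rragc* +/+, on the log2 scale) was above 0 for 8 of the 10 members and below 0 for *Orm1* and *Hp*, against 51.3% of all tested genes above 0, and the groups did not overlap for 2.94% of all tested genes. Without the 2-month-old liver *Saa1* (-0.19) and *Saa2* (-0.07) were below 0 as well. On the counts recovered from the values, edgeR's quasi-likelihood test and DESeq2 also called 0 of 10 members. Each gave 2 members, *Saa3* and *Lcn2*, an unadjusted p under 0.05. Of the 11174 tested genes, 618 in edgeR and 675 in DESeq2 had such a p. *Lcn2* had 86 reads in the 2-month-old liver and 2 to 11 in the others. Another group of liver genes lay lower in the *Rragc* S74N/+ livers. The 10 male-biased hepatocyte genes (*Mup20*, *Elovl3* and others) summed to 74983, 82543, 83249.9 and 77325 normalized counts in the *Rragc* +/+ livers and to 61835, 34004, 59769.6 and 16843 in the *Rragc* S74N/+ livers, without overlap. Their median log2 difference was -1.46, 0 of the 10 were above 0, and 7 were lower at an unadjusted p under 0.05 with 0 past the adjusted threshold (limma). That unadjusted p was reached by 5.17% of all tested genes in either direction and by 2.37% with a higher level in *Rragc* S74N/+. Sex is not stated for these livers, and what sets these sums apart was not tested. The part of the male-biased genes in the values of the 10 members was not tested.

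**Figure D1:**
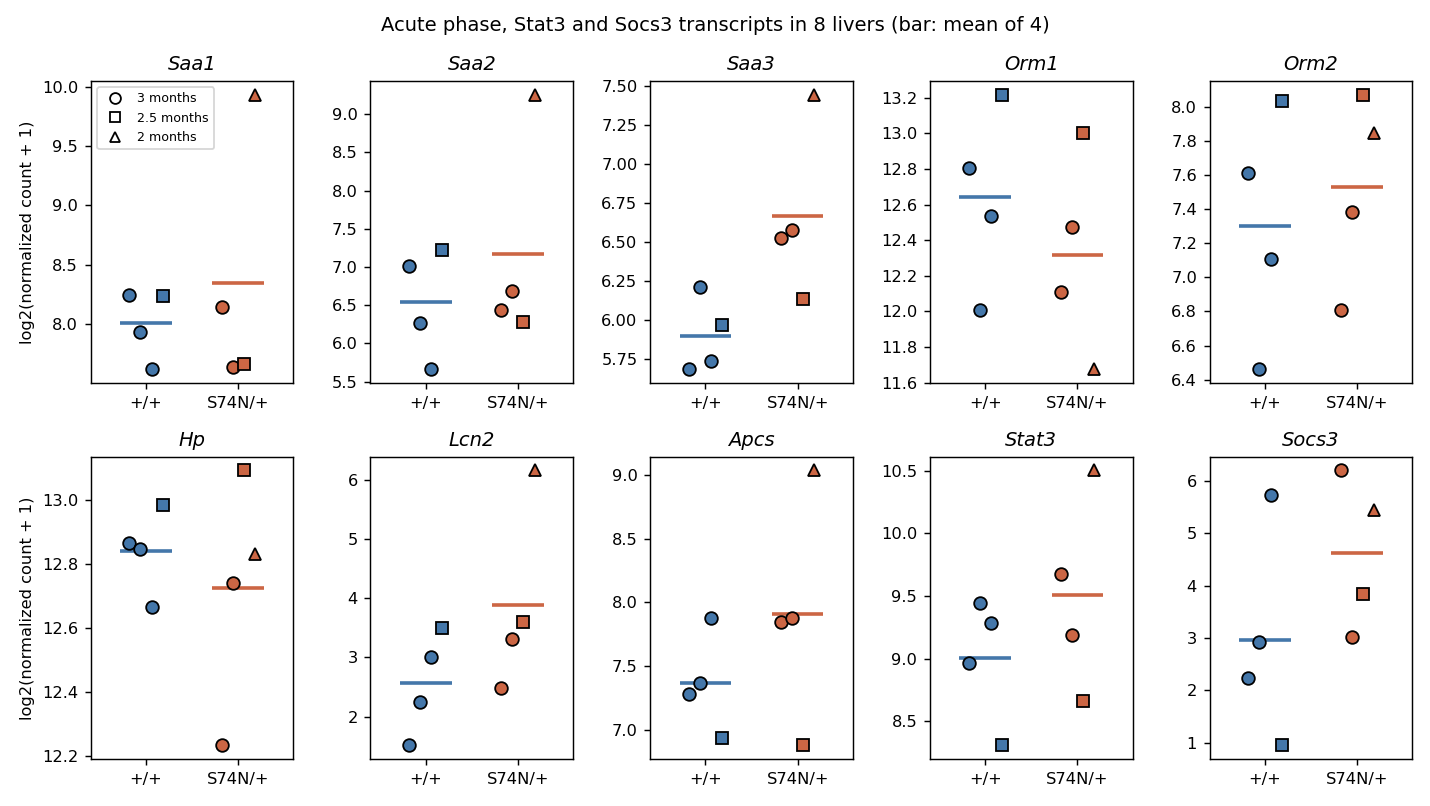
Level of each transcript in each liver as log2(normalized count + 1), with 4 *Rragc* +/+ livers in blue and 4 *Rragc* S74N/+ livers in orange, symbols for age and a bar for the mean of 4; vertical scales differ between panels. The 2-month-old *Rragc* S74N/+ liver (triangle) is the highest of 8 for 6 genes and the lowest for *Orm1*, and the 2 groups overlap in every panel.

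*Saa1* (chromosome 7, 46740497 to 46742980, reverse strand) encodes a hepatocyte apolipoprotein that circulates on high-density lipoprotein during inflammation. In replicate order, its normalized counts were 302, 243, 195 and 301 in the *Rragc* +/+ livers and 281, 198, 202 and 976 in the *Rragc* S74N/+ livers, and all values per liver are given in this order. The 2-month-old liver thus stood 3.23-fold above the highest of the other 7, whose own values lay within 1.55-fold of each other and mixed the genotypes. The log2 difference was 0.34 (SE 0.42, 95% interval -0.57 to 1.25, limma adjusted p = 0.874), and without the 2-month-old liver it was -0.19.

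*Saa2* (chromosome 7, 46751790 to 46754313, forward strand), the neighbouring gene with a closely related product, was at 129, 75.8, 49.5 and 149 normalized counts in *Rragc* +/+ and 85.4, 102, 76.9 and 609 in *Rragc* S74N/+ livers. The last value, that of the 2-month-old liver, was 4.10-fold the highest and 7.14-fold the median of the other 7. The log2 difference between genotypes was 0.62 (SE 0.57, limma adjusted p = 0.852) with that liver and -0.07 without it. The mean of the other 3 *Rragc* S74N/+ livers was 88.2 ± 12.9 (SD) beside 101 ± 45.9 (SD, n = 4) in *Rragc* +/+. In the last 300 transcript bases of *Saa1*, 9.56% of the 50-base words also occur in other serum amyloid A or orosomucoid genes. *Saa2* shared the most of them, and the share for *Saa2*, with *Saa1* first, was the same. Only exact words were counted, while the alignment allowed mismatches and multiple hits, so the split of reads between *Saa1* and *Saa2* is uncertain. With their reads summed the log2 difference was 0.42 (limma adjusted p = 0.859).

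*Saa3* (chromosome 7, 46711998 to 46715700, reverse strand) is made by macrophages and other cells besides hepatocytes. Its normalized counts were 50.3, 72.9, 52.3 and 61.7 in *Rragc* +/+ and 90.9, 94.2, 69.1 and 173 in *Rragc* S74N/+ livers. The only overlap was *Rragc* +/+ replicate 2 above *Rragc* S74N/+ replicate 3, and the 2-month-old liver was again the highest, at 1.84-fold the highest of the others. The log2 difference was 0.77 (SE 0.30, 95% interval 0.12 to 1.41) with an unadjusted p of 0.0235 and an adjusted p of 0.846 in limma. Without the 2-month-old liver it was 0.51 with an unadjusted p of 0.0968 (limma). Leaving out *Rragc* S74N/+ replicate 3 gave 0.95, with an unadjusted p of 0.00715 and an adjusted p of 0.256 in limma. In that setting 1690 of 11174 tested genes had an unadjusted p under 0.05 (limma), against 578 with all livers. Markers of monocytes and monocyte-derived macrophages (6 of 8 in the table) summed to 149 to 274 normalized counts in *Rragc* +/+ and 216 to 540.4 in *Rragc* S74N/+ livers, and 2 of their 4 tested genes were higher at an unadjusted p under 0.05, none of them at an adjusted p under 0.05 (limma). In *Rragc* +/+ replicate 4 the monocyte marker *Ly6c2* was listed at 0. Kupffer cell markers (10 of 10 in the table), the resident macrophages of the liver, summed to 2061 to 3458 and 2439 to 3976 in the same order, with overlap. Of these, 3 of 10 were higher at an unadjusted p under 0.05 and 0 passed the adjusted threshold (limma). Of all tested genes, 2.37% were higher at that unadjusted threshold. The part of these cells in the *Saa3* values was not tested.

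*Lcn2* (chromosome 2, 32384633 to 32388252, reverse strand) encodes a siderophore-binding protein that withholds iron from bacteria and is made by hepatocytes and neutrophils. It was read at low counts, with 2, 4, 5 and 11 reads in the *Rragc* +/+ livers against 5, 10, 10 and 86 reads in the *Rragc* S74N/+ livers. These are normalized counts of 1.86, 3.74, 7.07 and 10.3 against 4.59, 8.89, 11.1 and 70.2, so that the 2-month-old liver was 6.30-fold the highest of the others while the remaining 7 interleaved by genotype. The log2 difference was 1.32 (SE 0.82, limma adjusted p = 0.846) and 0.56 without that liver. Of 12 neutrophil markers 5 were in the table, and their sum was 47.7 to 144 normalized counts in *Rragc* +/+ and 35.7 to 114 in *Rragc* S74N/+ livers, with 114 in the 2-month-old liver. Within that list *S100a8* was at 33.4 and *S100a9* at 49.8 in the 2-month-old liver, both below *Rragc* +/+ replicate 1 at 81.1 and 55.0.

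*Apcs* (chromosome 1, 172893961 to 172895041, reverse strand) encodes serum amyloid P, the main acute phase pentraxin of mice. Its normalized counts were 155, 165, 235 and 121 in *Rragc* +/+ and 229.5, 234, 117 and 523 in *Rragc* S74N/+ livers. The 2-month-old liver was the highest, at 2.23-fold the highest of the others, and the 2.5-month-old livers of both genotypes were the lowest. The log2 difference of 0.54 (SE 0.38, limma adjusted p = 0.846) became 0.17 without the 2-month-old liver. Without *Rragc* S74N/+ replicate 3 it was 0.88, with an unadjusted p of 0.0154 and an adjusted p of 0.268 in limma. In that setting 1690 of 11174 tested genes had an unadjusted p under 0.05 (limma), against 578 with all livers.

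*Orm1* and *Orm2* (chromosome 4, 63344560 to 63348163 and 63362449 to 63365878, forward strand) encode alpha-1-acid glycoproteins, abundant plasma carriers of small basic molecules. *Orm1* gave 7147, 4121, 5926 and 9517 normalized counts in *Rragc* +/+ and 4417, 5686, 8204 and 3266 in *Rragc* S74N/+ livers. Here the 2-month-old liver was the lowest of the 8, at 0.551 of the median of the others, and the 2.5-month-old livers were the highest, both opposite to *Apcs*. Its log2 difference was -0.33 (SE 0.31, limma adjusted p = 0.852).

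For *Orm2* the values were 195, 87.0, 137 and 262 in *Rragc* +/+ and 111, 166, 269 and 230.0 in *Rragc* S74N/+ livers, with a log2 difference of 0.23 (SE 0.35, limma adjusted p = 0.896). The groups overlapped almost fully, with the 2.5-month-old *Rragc* S74N/+ liver the highest and *Rragc* +/+ replicate 2 the lowest. The ratio of *Orm1* to *Orm2* was 30.5 to 47.4 in 7 livers and 14.2 in the 2-month-old liver. Of the 50-base words in the last 300 bases of *Orm1*, 58.6% also occur in other orosomucoid or serum amyloid A genes. *Orm2* shared the most of them, so the split of reads between *Orm1* and *Orm2* is uncertain. With their reads summed the log2 difference was -0.31, the sign of *Orm1*, which holds most of the reads.

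*Hp* (chromosome 8, 109575128 to 109579172, reverse strand), whose product binds free haemoglobin, was the steadiest member. Its normalized counts were 7473, 7364, 6503 and 8103 in *Rragc* +/+ and 4814, 6849, 8738 and 7291 in *Rragc* S74N/+ livers, a 1.82-fold range over all 8. *Rragc* S74N/+ livers held both the lowest and the highest value, and the 2-month-old liver, at 0.990 of the median of the others, did not stand apart. Its log2 difference was -0.12 (SE 0.22, 95% interval -0.59 to 0.35, limma adjusted p = 0.911).

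*Stat3* (chromosome 11, 100885098 to 100939540, reverse strand) encodes the signal transducer that the interleukin 6 receptor activates, and its own gene is one of its targets. Its normalized counts were 499, 697, 622 and 316 in *Rragc* +/+ and 815, 581, 405 and 1450.5 in *Rragc* S74N/+ livers. The highest value belonged to the 2-month-old liver, at 1.78-fold the highest of the others, and the lowest values to the 2.5-month-old livers of both genotypes, the same 3 livers that stood at the opposite ends for *Orm1*. The difference on the log2 scale was 0.51 (SE 0.36, limma adjusted p = 0.846) and 0.17 without the 2-month-old liver. Without *Rragc* S74N/+ replicate 3 it was 0.79, with an unadjusted p of 0.0313 and an adjusted p of 0.291 in limma. In that setting 1690 of 11174 tested genes had an unadjusted p under 0.05 (limma), against 578 with all livers.

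*Socs3* (chromosome 11, 117966079 to 117970047, reverse strand) varied most among the members. It was read 4, 7, 37 and 1 times in the *Rragc* +/+ livers against 79, 8, 12 and 52 times in the *Rragc* S74N/+ livers. As normalized counts these are 3.73, 6.55, 52.3 and 0.934 against 72.5, 7.11, 13.4 and 42.4, so that 3 livers were high, 2 of them *Rragc* S74N/+ and 1 *Rragc* +/+, and the other 5 lay at 13.4 or below. In contrast to the serum amyloid genes, the highest liver was *Rragc* S74N/+ replicate 1, a 3-month-old mouse, and not the 2-month-old one. The log2 difference was 1.66 (SE 0.95, 95% interval -0.39 to 3.72, limma adjusted p = 0.846), and 1.39 without the 2-month-old liver. The SD within genotypes on the log2 scale was 1.76, wider than that of 99.2% of the tested genes, against 0.271 for *Hp*, wider than 16.0%.

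**Figure D2:**
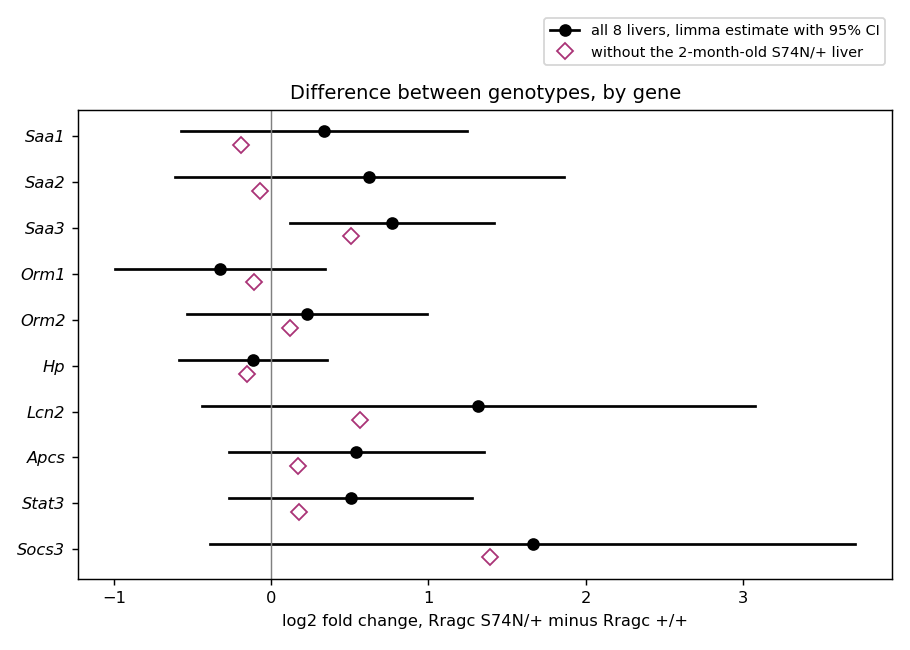
Log2 difference between *Rragc* S74N/+ and *Rragc* +/+ livers for each gene, with filled points and lines for the limma estimate and its 95% interval over 8 livers and open diamonds for the estimate without the 2-month-old liver. All intervals but that of *Saa3* (0.12 to 1.41, not adjusted for the number of genes) include 0, and without that liver *Saa1* and *Saa2* move to -0.19 and -0.07.

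The 2-month-old liver was the highest of 8 for 6 members (*Saa1*, *Saa2*, *Saa3*, *Lcn2*, *Apcs* and *Stat3*) and the lowest for 1 (*Orm1*), while over all tested genes it was the highest for 17.0% and the lowest for 18.4%. It exceeded the highest other liver by more than 2-fold for *Saa1*, *Saa2*, *Lcn2* and *Apcs*, as it did for 0.779% of all tested genes. For the other two of those 6, *Saa3* and *Stat3*, the excess was more than 1.5-fold, which 2.61% of all tested genes reached. *Hp* and *Orm2* were inside the range of the other livers and *Socs3* was below its highest, at 0.585 of that value. In the same liver the sum of the male-biased hepatocyte genes given above was the lowest of 8, and 9 of those 10 genes were at their lowest there. Adipocyte markers (4 of 8 in the table) summed to 16.9 to 39.2 over all livers, with 35.9 in that liver. With 1 mouse of this age these values describe 1 animal, and what sets it apart was not tested.

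Other acute phase and STAT3 pathway genes, in 5 lists, were read in the same way, and none of their genes passed an adjusted p of 0.05 in limma. The median log2 difference of each list is given beside that of all tested genes, 0.01. Of all tested genes, 5.17% had an unadjusted p under 0.05 in limma, and 2.37% were higher at that threshold. Upstream cytokines, receptors and kinases had 16 tested genes of 25, 2 of them higher and 0 lower at an unadjusted p under 0.05, and a median of 0.21. The cytokines *Il6*, *Osm*, *Lif*, *Il11*, *Il22*, *Il1a* and *Tnf* and the receptor *Il22ra1* were not analysed here.

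By the smallest unadjusted p that list was led by *Lepr*, the leptin receptor, whose soluble form hepatocytes release, and *Il1rn*, the interleukin 1 receptor antagonist. *Lepr* was at 8.39, 6.55, 14.1 and 0 normalized counts in *Rragc* +/+ and 11, 14.2, 20.1 and 71.8 in *Rragc* S74N/+ livers (log2 difference 2.01, SE 0.85, limma adjusted p = 0.846). *Il1rn* was at 8.39, 5.61, 7.07 and 3.74 against 5.51, 16.0, 23.4 and 46.5 (log2 difference 1.44, SE 0.64, limma adjusted p = 0.846). Both were highest in the 2-month-old liver, like the serum amyloid genes, and both groups overlapped. The cytokine *Il1b* came next, with a log2 difference of 0.93 (SE 0.61, limma adjusted p = 0.846).

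Transcription factors of acute phase promoters had 16 tested genes of 17, with 0 at an unadjusted p under 0.05 and a median log2 difference of 0.20. By the smallest unadjusted p in limma they were led by *Stat5b* (log2 difference -0.37) and *Hnf4a* (0.36). With 4 livers per genotype this does not show that the factors were alike. The SE for *Hnf4a*, for instance, was 0.29. The 2-month-old liver was the highest for 2 of the 16, against 17.0% of all tested genes.

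Immediate STAT3 and NF-kB targets and feedback genes had 21 tested of 26, of which 3 were higher and 0 lower at an unadjusted p under 0.05, with a median log2 difference of 0.27. *Socs2*, a feedback inhibitor that growth hormone and STAT5 induce, was at 341, 256, 76.4 and 252 normalized counts in *Rragc* +/+ and 635, 408, 416 and 977 in *Rragc* S74N/+ livers, without overlap (log2 difference 1.49, SE 0.42, limma adjusted p = 0.846). *Nfkbiz*, an inducible co-regulator of NF-kB, was at 21.4, 15.0, 36.8 and 34.6 against 45.0, 56.0, 69.1 and 53.8, also without overlap (log2 difference 1.10, SE 0.34, limma adjusted p = 0.846). The groups of *Junb*, an AP-1 subunit, overlapped, with a log2 difference of 1.32 (SE 0.55, limma adjusted p = 0.846). Groups without overlap were thus seen for *Socs2* and *Nfkbiz*, as for 2.94% of all tested genes. *Socs2*, *Nfkbiz* and *Junb* were named for the smallest unadjusted p of this list (limma). That choice favours groups without overlap, so they are not compared with the 10 members, which were named without it.

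Other positive acute phase proteins had 30 tested genes of 32, 2 higher and 2 lower at an unadjusted p under 0.05, and a median log2 difference of 0.13. *Il1rn* stands in this list and in the upstream list and is counted among the higher genes of both. *Serpina3k*, a serine protease inhibitor, was at 61632, 54968, 66228 and 80147 normalized counts in *Rragc* +/+ and 39165, 36391, 40178 and 34993 in *Rragc* S74N/+ livers (log2 difference -0.79, SE 0.23, limma adjusted p = 0.846). *Fgl1*, a fibrinogen-like hepatokine, was at 256, 349, 419 and 359 against 757, 434, 559 and 2131 (log2 difference 1.21, SE 0.39, limma adjusted p = 0.846). Neither pair of groups overlapped, as for 2.94% of all tested genes, and they lay in opposite directions. Both genes were named for their small unadjusted p in this list (limma), a choice that favours groups without overlap. *Vnn1*, a pantetheinase, followed with a log2 difference of -1.12 (SE 0.38, limma adjusted p = 0.846), and its groups overlapped by 1 liver, *Rragc* S74N/+ replicate 3 above *Rragc* +/+ replicate 4. *Serpina3k* belongs to a family of close copies, among which reads may be split.

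In the 2-month-old liver the same list was the highest of 8 for 13 of its 30 tested genes and the lowest for 4. Over all tested genes that liver was the highest for 17.0% and the lowest for 18.4%. The metallothionein genes *Mt1* and *Mt2*, whose small proteins bind zinc and are induced by glucocorticoid and interleukin 6, were furthest from the rest, at 4381 and 1887 normalized counts against a highest other value of 207 and 43.0. *Fgl1* was 2.82-fold, *Fgb* and *Lbp* 1.48-fold the highest of the other livers. *Orm3* followed *Orm1* in the opposite direction, with 4.89 normalized counts there and 6.43 to 34.5 elsewhere. *Mt1*, *Fgb*, *Lbp* and *Orm3* were singled out after their values in this liver were seen.

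**Figure D3:**
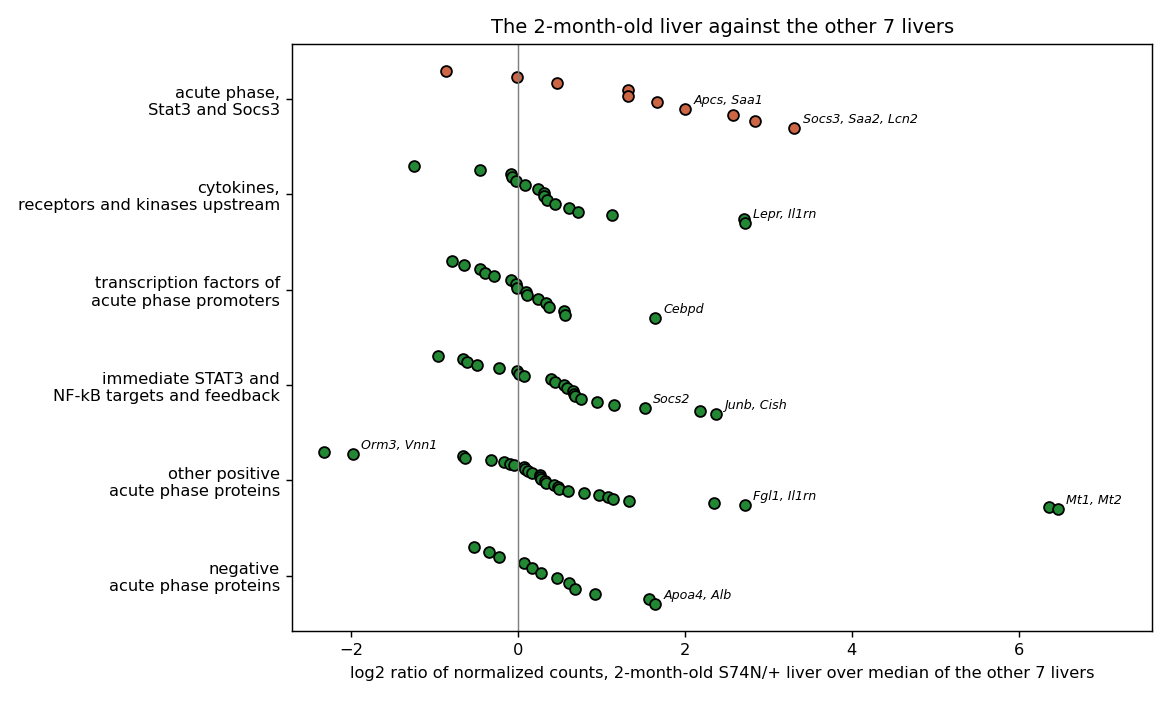
Each point is a tested gene, placed by the log2 ratio of its normalized count in the 2-month-old *Rragc* S74N/+ liver to the median of the other 7 livers, with the 10 genes in orange and the 5 pathway lists in green; names are given beyond a log2 ratio of 1.5. *Lcn2* and *Saa2* lie at 9.92-fold and 7.14-fold, *Orm1* lies to the left of 0, and *Mt1* and *Mt2* lie farthest to the right.

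Negative acute phase proteins, plasma proteins that the liver makes less of during inflammation, had 12 tested genes of 12, with 0 at an unadjusted p under 0.05 and a median log2 difference of 0.21. *Alb* was at 68581, 72360.1, 166784 and 57178 normalized counts in *Rragc* +/+ and 134887, 137256, 80712 and 252840.3 in *Rragc* S74N/+ livers (log2 difference 0.75, SE 0.41, limma adjusted p = 0.846). *Serpina7*, thyroxine-binding globulin, had a log2 difference of 1.02 and *Gc*, vitamin D-binding protein, of 0.35, both at a limma adjusted p of 0.846. In the 2-month-old liver, in which *Saa1* and *Saa2* were highest, 6 of these 12 genes were the highest of 8 and 0 were the lowest. Of all tested genes, 17.0% were highest and 18.4% lowest there.

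The members were then compared with *Saa1* over the 8 livers, on log2(normalized count + 1), in 9 relations with exact two-sided permutation tests. *Saa2* followed *Saa1* (Pearson r = 0.949, exact permutation p = 0.00466, adjusted over the 9 relations 0.0420; Spearman rho = 0.81, exact permutation p = 0.0218, adjusted 0.196). The other 8 relations had adjusted permutation p-values of 0.201 to 0.927 for Pearson and 0.935 for Spearman, with r of 0.732 for *Saa3*, 0.711 for *Lcn2*, 0.697 for *Apcs*, 0.672 for *Stat3*, 0.296 for *Orm2*, 0.207 for *Socs3*, 0.0269 for *Hp* and -0.543 for *Orm1*.

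The size of these r values rests largely on the 2-month-old liver. Without the 2 livers farthest from the median of *Saa1*, that one and *Rragc* +/+ replicate 3, r for *Saa2* was 0.602 (n = 6, exact permutation p = 0.203), and r was between -0.541 and 0.117 for all 8 others. On deviations from each genotype's mean, r for *Saa2* was 0.948 with an exact permutation p of 0.0139 over all relabellings within genotype, adjusted 0.125. With only the 2-month-old liver left out, *Saa2* had an r of 0.709 (exact permutation p adjusted over the relations 0.655) and *Lcn2* one of -0.523 with *Saa1*. The call for *Saa2* was also lost on leaving out any one liver other than *Rragc* S74N/+ replicate 2. In those other 6 cases r stayed at 0.948 to 0.958, with an adjusted exact permutation p of 0.0536 to 0.125 over 7 livers.

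**Figure D4:**
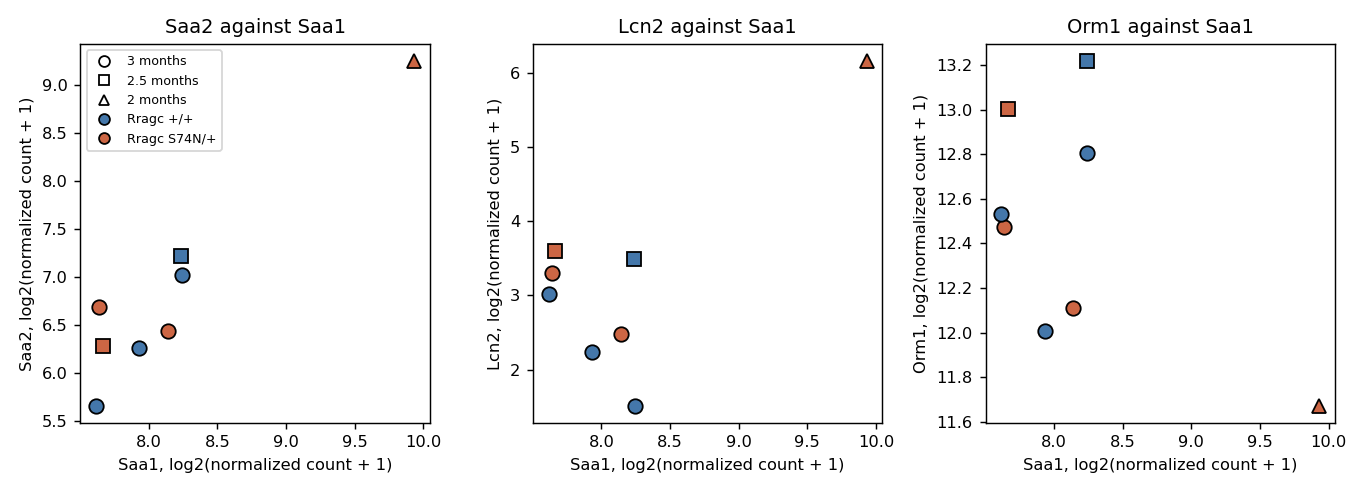
*Saa2*, *Lcn2* and *Orm1* plotted against *Saa1*, each as log2(normalized count + 1), in 4 *Rragc* +/+ (blue) and 4 *Rragc* S74N/+ livers (orange) with symbols for age. The 2-month-old liver lies alone at the right of each panel, and r over the 8 livers is 0.949, 0.711 and -0.543.

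The genes whose pattern over the 8 livers was most like that of *Saa1*, outside the members, were *Aldh1l1* (r = 0.932), *Pgk1* (0.929), *Slc41a2* (0.928), *Mt2* (0.922) and *Sfxn2* (0.915). Without the 2-month-old liver their r fell to 0.599, 0.705, 0.60, 0.240 and 0.359. They are picked as the highest of all tested genes over 8 points, so the r values describe likeness and are no test.

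For *Socs3* the closest were *Slc12a7* (r = 0.986), a potassium-chloride cotransporter, *Sec13* (0.979), a coat protein of vesicles leaving the endoplasmic reticulum, *Jup* (0.973), a junction protein, *Slc35c1* (0.970), a GDP-fucose transporter, and *Cox15* (0.965), a haem A synthase. Their r without the 2-month-old liver stayed at 0.966 to 0.988. Each was highest in *Rragc* S74N/+ replicate 1 and lowest in *Rragc* +/+ replicate 4, as *Socs3* was. *Slc12a7* was at 69.9, 91.7, 173 and 53.3 normalized counts in *Rragc* +/+ and 208, 87.1, 92.5 and 182 in *Rragc* S74N/+ livers, a narrower range than *Socs3* over the same order.

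**Figure D5:**
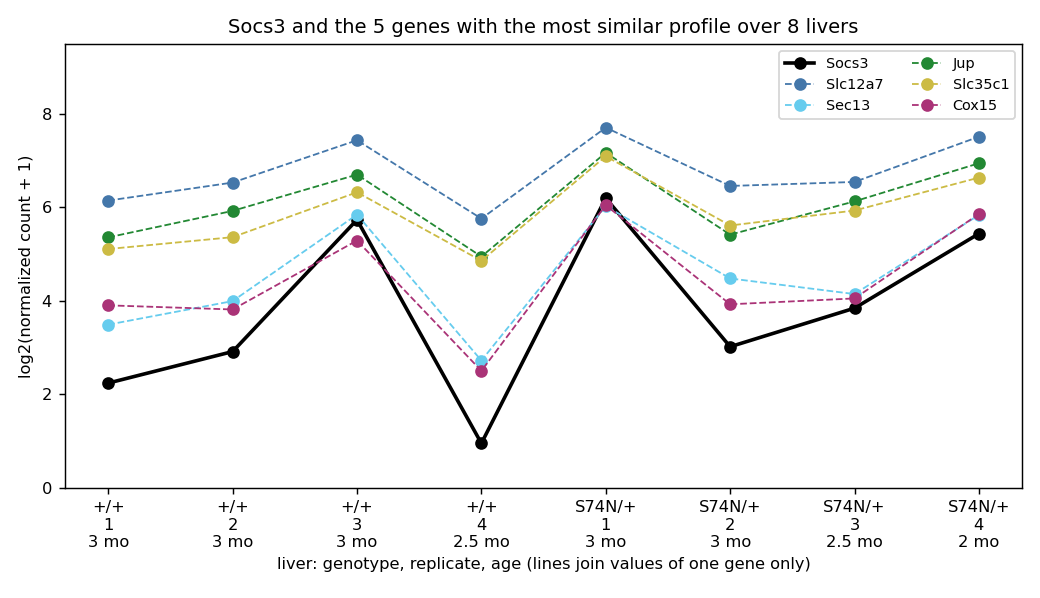
*Socs3* (black) and the 5 genes with the highest r to it, as log2(normalized count + 1) by liver; lines only join the values of a gene. All 6 genes are high in *Rragc* S74N/+ replicates 1 and 4 and *Rragc* +/+ replicate 3, and lowest in *Rragc* +/+ replicate 4.

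Among the genes that share the feedback role of *Socs3*, *Cish* and *Pim3* were also highest in *Rragc* S74N/+ replicate 1 and next highest in replicate 4, a resemblance noticed after the values were seen. *Cish*, another cytokine-induced inhibitor, was at 79.2, 9.35, 38.2 and 58.9 normalized counts in *Rragc* +/+ and 431, 35.6, 8.92 and 197 in *Rragc* S74N/+ livers. *Pim3*, a STAT-induced kinase, was at 60.6, 135, 120.2 and 26.2 against 337, 121, 21.2 and 193. Neither was high in *Rragc* +/+ replicate 3 the way *Socs3* was, and neither passed the test (limma adjusted p = 0.852 and 0.856).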

How the data were processed

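Livers of 8 mice were profiled by 3′ messenger RNA sequencing with oligo-dT priming and without molecular identifiers. Reads were aligned by the authors against GRCm38 using TopHat2 2.0.10, Bowtie 1.0.0 and SAMtools 0.1.19, counted them by strand with HTSeq 0.6.1 and scaled them with DESeq. The deposited signal is a normalized count per gene and liver. All values (100%) were whole multiples, within 0.01, of 1 read in that liver, so reads were recovered for edgeR 4.0.16 and DESeq2 1.42.0, run as alternatives. Depth is the reads in listed genes, and no other depth is known.

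Groups were taken from the labels. The labels name each library as a liver of its own, and p-values measure the spread between livers. No 2 libraries looked like a single library entered again (chi-square per degree of freedom 16.1 to 112 over 28 pairs). The genotypes were compared in limma 3.58.1 under R 4.3.3 (empirical Bayes with a trend, genotype alone) on log2(normalized count + 1), which understates changes of low genes, for genes whose mean was 10 or more, with Benjamini-Hochberg adjustment at 0.05. The scripts were tested on simulated data. Alternatives were other pseudocounts, filters, scalings, weights and tools, age as a term, 3-month-old mice alone and leaving out each liver. Summing the reads of *Saa1* with *Saa2* and of *Orm1* with *Orm2* was chosen after seeing the data.

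The members and lists were chosen with earlier results of these data known. Named genes are the members, *Rragc*, the 3 genes with the smallest p of each list, the 5 genes with the highest r to *Saa1* and to *Socs3*, and genes said to be singled out later. A gene that this rule names is not reported here. Coordinates come from GENCODE M21 (GRCm38), a release next to the one the authors used. Promoter sequences are from RefSeq (GRCm38.p6, 8 of 10 members matched), and the motifs were chosen after these windows were read. Motifs were searched on both strands over 250 bases.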

Additional observations from a re-analysis of the deposited data

Results flagged for a closer look

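The 2-month-old *Rragc* S74N/+ liver (replicate 4) had a log2(normalized count + 1) of 9.25 for *Saa2*, while the other 3 *Rragc* S74N/+ livers lay between 6.28 and 6.69, a gap that passed Dixon's 95% criterion for 4 samples. This was 1 of 20 groups of 4 livers tested over the 10 genes, and about 1 in 20 is flagged by chance. Over all tested genes, 5.23% of the *Rragc* S74N/+ groups and 5.45% of the *Rragc* +/+ groups passed the same criterion.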

How the results depend on the processing

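No paired analysis was possible because a replicate number here is a name given by accession order and ties no mouse to another. None of the 10 genes was called under any of the 13 other settings or with any liver left out (0 to 0). Over all tested genes the count of calls was 1 and became 0 in limma without the trend and in 3-month-old mice alone, 10 with DESeq2, 3 with age as a factor, and 0 to 2 with 1 liver left out, the 2 without *Rragc* S74N/+ replicate 3.

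With all livers of a setting kept, the sign of the log2 difference turned for *Saa1*, *Saa2* and *Orm2*. With age as a factor *Saa1* was at -0.20 and *Saa2* at -0.10. The age term fits the only 2-month-old liver exactly, so that liver does not inform the genotype difference in this setting. In 3-month-old mice alone *Saa1* was at -0.042. With the pairs summed *Orm2* was at -0.31, while *Saa1* with *Saa2* kept its sign at 0.42. With 1 liver left out the log2 difference ranged from -0.19 to 0.57 for *Saa1*, -0.072 to 0.92 for *Saa2*, 0.51 to 0.95 for *Saa3*, -0.56 to -0.11 for *Orm1*, -0.057 to 0.47 for *Orm2*, -0.24 to 0.048 for *Hp*, 0.56 to 1.79 for *Lcn2*, 0.17 to 0.88 for *Apcs*, 0.17 to 0.79 for *Stat3* and 0.99 to 2.59 for *Socs3*. The lowest values of *Saa1*, *Saa2*, *Saa3*, *Lcn2*, *Apcs* and *Stat3* were those without the 2-month-old liver. *Lcn2* and *Socs3* could not be tested at a mean of at least 50.

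The count of relations with *Saa1* past the threshold was 1 and became 0 on deviations from the genotype mean, 0 without the 2 livers farthest from its median, and 0 to 1 with 1 liver left out, 0 in 7 of the 8 cases and 1 without *Rragc* S74N/+ replicate 2. Without those 2 livers r was -0.54 for *Saa3*, 0.12 for *Orm1*, -0.041 for *Orm2*, -0.24 for *Hp*, -0.53 for *Lcn2*, -0.13 for *Apcs*, -0.083 for *Stat3* and -0.20 for *Socs3*. With 1 liver left out r ranged from 0.71 to 0.97 for *Saa2*, -0.19 to 0.84 for *Saa3*, -0.68 to 0.13 for *Orm1*, 0.049 to 0.49 for *Orm2*, -0.13 to 0.19 for *Hp*, -0.52 to 0.84 for *Lcn2*, -0.31 to 0.78 for *Apcs*, -0.16 to 0.84 for *Stat3* and -0.39 to 0.39 for *Socs3*. The cause of these changes was not tested beyond the liver left out. Low reads limit *Lcn2* (2 to 86 reads) and *Socs3* (1 to 79 reads).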
